A study of Drosophila melanogaster with 9 samples.

Results

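The maltase gene family of Drosophila was followed in whole wandering larvae of the last instar with and without working copies of Atg6, the fly Beclin 1. Its members were taken by name from the deposited expression table: Mal-A1 to Mal-A8 and Mal-B1 and Mal-B2, 10 genes among 15809 loci. Larvae homozygous for the mutant allele (Atg6D/Atg6D, Atg6-/-), heterozygous larvae (Atg6D/+, Atg6-/+) and larvae with wild type Atg6 were compared, with 3 libraries of each genotype. All 3 genotypes shared the w118 background, standard food and a temperature of 25C. Each library held RNA of whole larvae, so that fewer gut cells and less maltase RNA per gut cell cannot be told apart. The labels do not say that the libraries of a genotype came from separate cultures, and p-values therefore measure the spread between these libraries.

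Maltases are alpha-glucosidases that cleave maltose, sucrose and related sugars at the surface of gut cells and so release glucose. Amylase acts before them, cutting dietary starch to maltose. Mal-A1, Mal-A2 and Mal-A3 were first described as the larval visceral proteins LvpH, LvpD and LvpL. In Drosophila the transcription factor pair Mondo and bigmax (Mlx), their target sug, and the Activin-like ligand daw link dietary sugar to the expression of digestive enzymes, with daw known for the repression of amylase and maltase genes by glucose.

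Levels are in FPKM, the fragments of a locus divided by its transcript length and by the size of the library, so that levels of different genes can be set side by side. Differences between genotypes are given as log2 ratios of FPKM + 1 with a standard error (SE), from limma fitted to 10887 loci with at least 1 FPKM in at least 3 libraries and adjusted over all of them, and a change was called at an adjusted p under 0.05. The scale understates changes of weakly expressed genes. Atg6 RNA followed the labels: homozygous libraries had 0.0270, 0 and 0.0563 FPKM, heterozygous libraries 7.58, 7.98 and 8.89 FPKM, and wild type libraries 16.1, 14.3 and 17.0 FPKM. The w locus, which also carries CG32795, had 86.6, 58.3 and 70.1 FPKM in the homozygotes. It had 75.8, 61.0 and 57.0 FPKM in the heterozygotes and 29.4, 49.1 and 32.5 FPKM in the wild types. At this locus each wild type lay below every library with a mutant copy, and the source of that difference was not tested. Absolute depth is unknown, and depth relative to wild type 1 ran from 0.787 to 1.28. Single libraries stood apart from the others of their genotype, but not the same ones in every maltase. Homozygote 2 did so in Mal-A1, Mal-A3 and Mal-A4, homozygote 3 in Mal-A6 and Mal-A8, and homozygote 1 in Mal-B2. In Mal-A2 the homozygotes lay apart from one another, at 28.9, 2.74 and 12.4 FPKM. Wild type 2 stood apart in the A genes other than Mal-A5.

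The family lies at 2 places in the genome. In the Ensembl 115 annotation of BDGP6, the build the submitters name as dm6, the 8 A genes form a cluster of 24.3 kb on arm 2R, from 8449664 to 8473961, in numerical order with 5 genes on the plus and 3 on the minus strand. Mal-A5 and Mal-A6 lie 65 bases apart and Mal-A2 and Mal-A3 126 bases apart, whereas the widest gap, between Mal-A4 and Mal-A5, is 1868 bases. Mal-B1 and Mal-B2 lie 788 bases apart on arm 2L, from 11847226 to 11852881, both on the plus strand inside Pde1c, which is on the opposite strand and shares 0 exon bases with them. The annotated coding lengths of the 10 genes run from 1701 bases in Mal-A2 to 1890 in Mal-A5. Mal-A1 shares 82 of its 1826 exon bases (4.49%) with Cyp4e1 on the other strand, and Mal-A8 shares 6 of 1814 (0.331%) with mtt. Whether counting used the strand, and how reads that match several maltases were assigned, is not given in the sources used here.

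**Figure D1:**
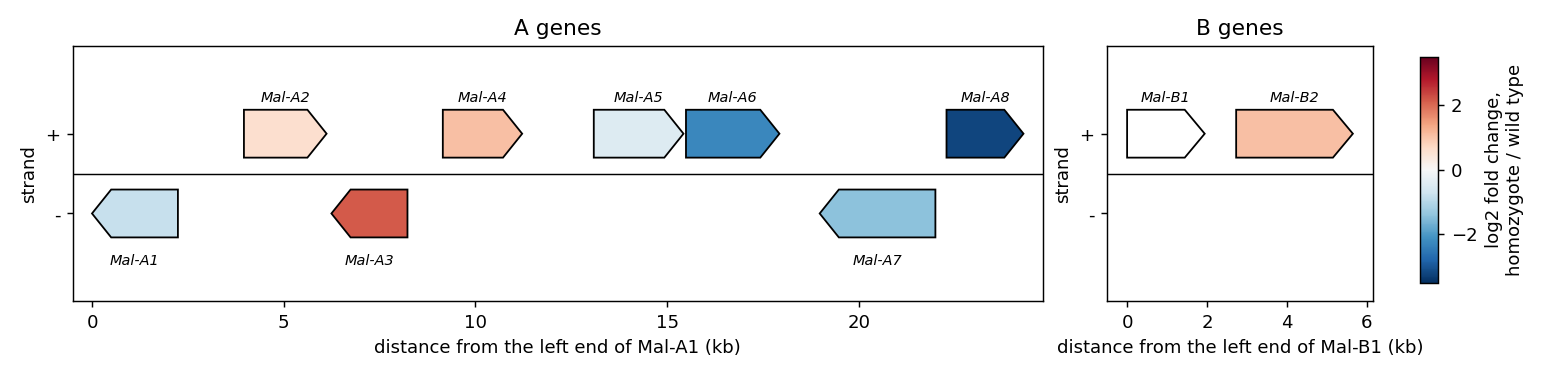
Map of the A genes (left) and the B genes (right), by distance in kb from the left end of Mal-A1 or Mal-B1 and by strand; the colour gives the log2 fold change of FPKM + 1 in homozygotes over wild types. Mal-A6, Mal-A7 and Mal-A8 at the right end are blue (lower in homozygotes), Mal-A3 has the darkest red (2.15, not called), and Mal-B1, which was not tested, is white.

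The family spanned a wide range of expression, and the order of its members by mean level differed between the genotypes. In the homozygotes Mal-A5 had the highest mean (76.8 ± 11.3 FPKM, SD, n = 3), followed by Mal-A3 (68.8 ± 50.8 FPKM) and Mal-A4 (55.9 ± 38.9 FPKM). In the heterozygotes Mal-A5 led again (109.7 ± 17.7 FPKM), ahead of Mal-A6 (59.1 ± 11.6 FPKM) and Mal-A8 (27.3 ± 9.36 FPKM). In the wild types Mal-A6 led (145 ± 72.3 FPKM), ahead of Mal-A5 (107 ± 5.34 FPKM) and Mal-A8 (59.8 ± 28.9 FPKM). Most neighbours in these orders were not separated by the spread of their libraries: of 9 neighbouring pairs 7 overlapped in the homozygotes, 6 in the heterozygotes and 7 in the wild types. Mal-A5 and Mal-A8 in the wild types, and Mal-A5, Mal-A6 and Mal-A8 from each other in the heterozygotes, were separate. Mal-A7 and Mal-B1 were the lowest members in each genotype.

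**Figure D2:**
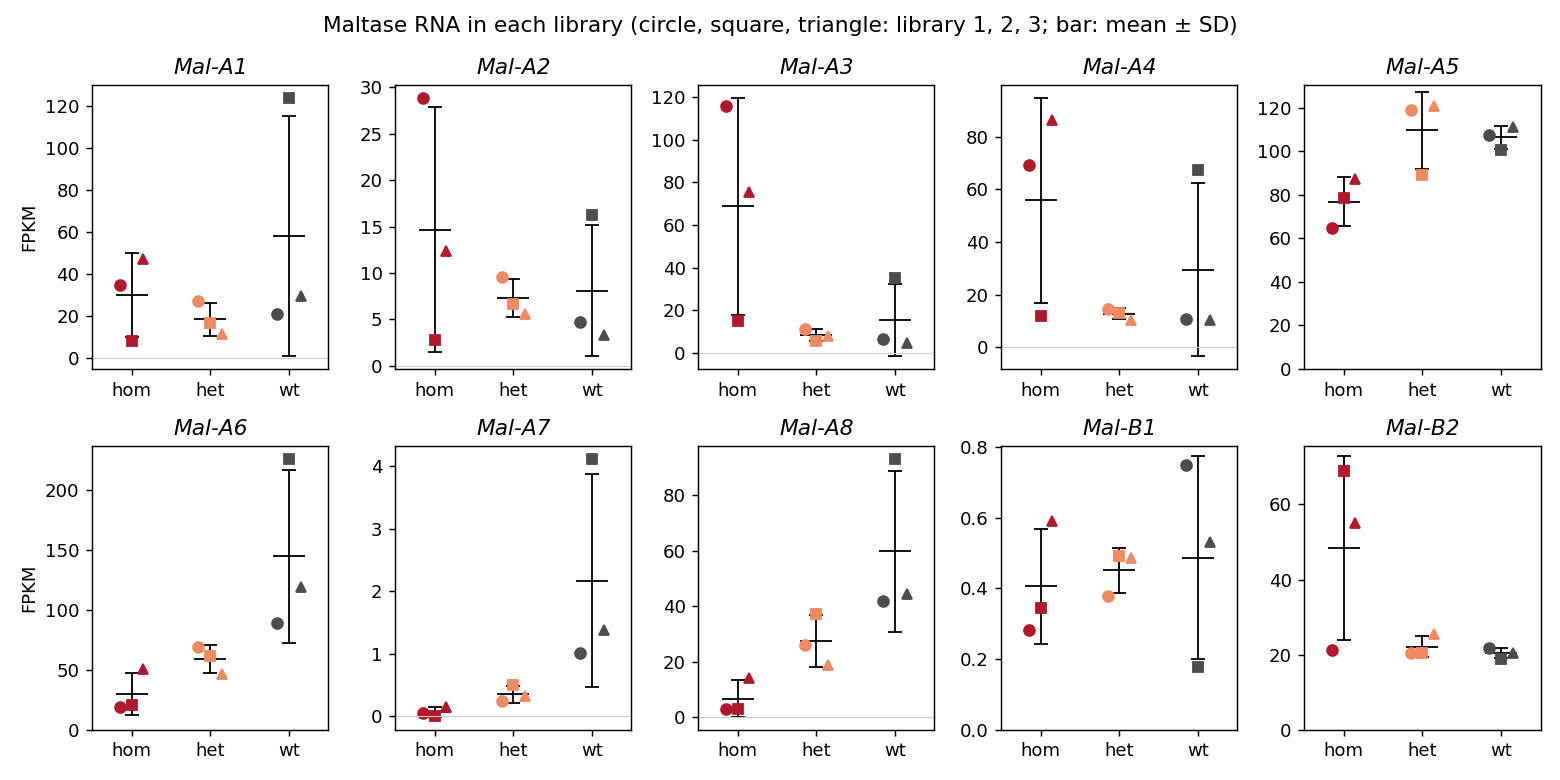
FPKM of each maltase in the homozygous (hom), heterozygous (het) and wild type (wt) libraries; circles, squares and triangles are libraries 1, 2 and 3, and bars give the mean and SD of 3 libraries. Mal-A6 and Mal-A8 are lower in each homozygote than in each wild type, whereas Mal-A1 to Mal-A4 are higher in homozygotes 1 and 3 and in wild type 2 than in the other 6 libraries.

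How the loss of both working copies of Atg6 went with maltase RNA was asked by the comparison of homozygotes with wild types. Mal-A6 and Mal-A8, at one end of the A cluster, fell in the homozygotes, and 0 of the 9 tested maltases rose. Mal-A7, which lies between them, was called lower too, but it entered the test through the wild types alone and so had to differ from them. It is left out of the counts in the rest of this paragraph. Across all loci 22.0% were called in this comparison, 12.3% higher and 9.67% lower. Of the 7 other A genes 2 were called lower, with a median log2 fold change of -0.48, against 0.0090 for all tested loci. At an unadjusted p under 0.05, 2 of the 8 other tested maltases were higher and 3 lower. The share of all loci under that unadjusted p is not given here for any comparison, so such counts have no background beside them. Homozygous and wild type libraries did not overlap for 3 of these 8 (Mal-A5, Mal-A6 and Mal-A8), and for 40.0% of all tested loci.

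Mal-A8 (2R, 8471954 to 8473961, plus strand, 4 exons) had the largest fall of the family on the scale of FPKM + 1; with a pseudocount of 0.1 its value (-3.47) was smaller in size than that of Mal-A7 (-3.58). Its RNA was 2.87, 2.93 and 14.2 FPKM in homozygotes 1, 2 and 3, 26.1, 37.2 and 18.6 FPKM in the heterozygotes, and 41.7, 93.1 and 44.5 FPKM in the wild types. The 3 genotypes did not overlap, with the homozygotes lowest and the wild types highest, and homozygote 3 lay closest to the heterozygotes. Against the wild types the homozygotes were lower by a log2 fold change of -3.21 (SE 0.58, 95% interval -4.54 to -1.88, limma adjusted p = 0.00996), a 9.24-fold difference of FPKM + 1. The call held without each of the 9 libraries in turn, with adjusted p from 0.00339 to 0.0360.

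Mal-A6 (2R, 8465158 to 8467595, plus strand, 3 exons) fell as well. It had the highest mean of the wild types, though Mal-A5 exceeded it in wild type 1 (107 against 89.3 FPKM). Its RNA was 18.9, 20.4 and 50.3 FPKM in the homozygotes, 69.1, 62.0 and 46.3 FPKM in the heterozygotes, and 89.3, 227 and 119 FPKM in the wild types. Each wild type lay above every other library, while homozygote 3 lay within the heterozygotes. The log2 fold change of homozygotes over wild types was -2.27 (SE 0.44, 95% interval -3.30 to -1.25, limma adjusted p = 0.0139), or 4.84-fold lower. This call held without each library in turn (adjusted p = 0.00937 to 0.0482) and was lost when only these 2 genotypes were fitted (0.0552).

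Mal-A7 (2R, 8468646 to 8471663, minus strand, 3 exons) was weakly expressed. Its RNA was 0.0611, 0 and 0.149 FPKM in the homozygotes, 0.245, 0.505 and 0.319 FPKM in the heterozygotes, and 1.01, 4.13 and 1.38 FPKM in the wild types. It reached 1 FPKM in the 3 wild types alone and entered the test through them, so that it had to differ. The fitted log2 fold change was -1.44 (SE 0.34, limma adjusted p = 0.0258) and moved with the pseudocount, from -3.58 at 0.1 to -0.47 at 5. The call was lost without homozygote 3 (adjusted p = 0.0717), at the pseudocount of 5 (0.0569), after quantile normalization (0.0616) and with 2 genotypes fitted (0.0824), and without any 1 of the wild types the gene was not tested.

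Mal-A5 (2R, 8462753 to 8465092, plus strand, up to 7 exons) varied least among the A genes, with a ratio of 1.87 between its highest and lowest library. Its RNA was 64.8, 78.4 and 87.2 FPKM in the homozygotes, 119, 89.3 and 121 FPKM in the heterozygotes, and 107, 101 and 111 FPKM in the wild types. All 3 homozygotes lay below the other 6 libraries. The log2 fold change of homozygotes over wild types, -0.48 (SE 0.15, 95% interval -0.83 to -0.12), did not pass the threshold (limma adjusted p = 0.0571), and after quantile normalization it did (-0.71, 0.0411). Against heterozygotes the value was -0.51 (SE 0.15, adjusted p = 0.0930).

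The 4 genes at the other end of the cluster, Mal-A1 to Mal-A4, varied widely between libraries of one genotype, and 0 of the 4 was called in any comparison in limma, with Mal-A3 alone under an unadjusted p of 0.05 (in homozygotes over wild types and over heterozygotes). Mal-A3 (2R, 8455909 to 8457892, minus strand) had 116, 14.98 and 75.4 FPKM in the homozygotes, 11.4, 5.61 and 8.004 FPKM in the heterozygotes, and 6.65, 35.0 and 4.88 FPKM in the wild types. Every homozygote was above every heterozygote, but wild type 2 exceeded homozygote 2. The difference of homozygotes over wild types was 2.15 on the log2 scale (SE 0.88, 95% interval 0.12 to 4.18, limma adjusted p = 0.105) and that over heterozygotes 2.53 (SE 0.88, adjusted p = 0.133). Both depended on single libraries: over wild types the change was called without homozygote 2 (3.01, adjusted p = 0.0332) or wild type 2 (2.96, 0.0345), and over heterozygotes without homozygote 2 (3.39, 0.0433).

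Mal-A4 (2R, 8458815 to 8460884, plus strand) had 69.1, 12.1 and 86.4 FPKM in the homozygotes, 14.5, 13.2 and 10.5 FPKM in the heterozygotes, and 10.8, 67.5 and 10.5 FPKM in the wild types. Homozygotes 1 and 3 and wild type 2 were high, and the other 6 libraries lay close together. The log2 difference of homozygotes over wild types was 1.04 (SE 0.88, 95% interval -0.99 to 3.07, limma adjusted p = 0.401), and over heterozygotes 1.66 (SE 0.88, adjusted p = 0.259). Neither was called with any 1 library left out, but single libraries moved both: over wild types the difference ran from 0.53 without homozygote 3 to 1.90 without homozygote 2 (adjusted p = 0.725 and 0.0944) and was 1.89 without wild type 2, and over heterozygotes it ran from 1.15 without homozygote 3 to 2.52 without homozygote 2 (0.526 and 0.0880). Mal-A1 (2R, 8449664 to 8451904, minus strand) had 34.9, 7.93 and 46.9 FPKM in the homozygotes, 27.0, 16.9 and 11.3 FPKM in the heterozygotes, and 20.8, 124 and 29.6 FPKM in the wild types. Its highest and lowest libraries, wild type 2 and homozygote 2, differed by a ratio of 15.6. The difference of homozygotes over wild types, -0.81 (SE 0.81, 95% interval -2.68 to 1.06, adjusted p = 0.478), was -0.055 without wild type 2.

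Mal-A2 (2R, 8453627 to 8455782, plus strand) had 28.9, 2.74 and 12.4 FPKM in the homozygotes, 9.62, 6.65 and 5.64 FPKM in the heterozygotes, and 4.76, 16.2 and 3.37 FPKM in the wild types. Its highest and lowest libraries were both homozygotes, and the genotypes overlapped. The log2 difference of homozygotes over wild types was 0.60 (SE 0.78, 95% interval -1.20 to 2.39, limma adjusted p = 0.592) and was -0.096 without homozygote 1.

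Mal-A1, Mal-A2, Mal-A3 and Mal-A4 had one feature in common across libraries: in each, homozygote 1, homozygote 3 and wild type 2 were the 3 highest of the 9 libraries. This held for 4 of the 8 A genes and for 2.30% of all tested loci, and it was singled out after the values were seen. It also held for 3 of 17 other glycosidases and amylases (tobi, GCS1 and Gba1a). Among midgut genes it held for 3 of 35 proteases, lipases and lysozymes (Jon25Biii, etaTry and iotaTry) and for 0 of 24 identity and peritrophic genes. Elsewhere it held for 2 of 9 markers of the Malpighian tubules (Irk2 and CapaR), 1 of 11 salivary glue genes and 1 of 14 ecdysone response genes. The count was 0 of 12 for fat body markers, 0 of 10 for sugar sensing and 0 of 16 for trehalose, glycogen and sugar transport. The summed RNA of that protease list was 84703, 43377 and 79927 FPKM in the homozygotes, 117245, 91112 and 81638 FPKM in the heterozygotes, and 48474, 92546 and 52485 FPKM in the wild types. In this list homozygote 2 was the lowest of the 9 libraries, as in Mal-A1 and Mal-A2, and wild type 2 the highest wild type, as in Mal-A1 to Mal-A4. Heterozygote 1 had its highest sum, though it stood below homozygotes 1 and 3 and wild type 2 in each of the 4 maltases. The part of gut content in the spread of Mal-A1 to Mal-A4 was not tested.

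**Figure D3:**
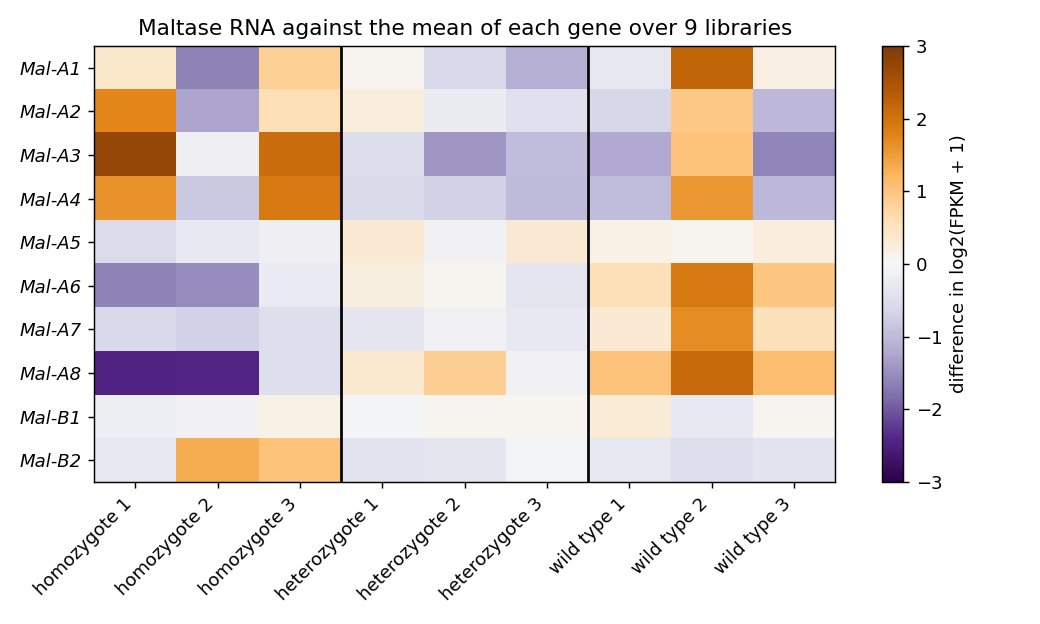
Heat map of each maltase (rows) in each of the 9 libraries (columns, homozygotes left, then heterozygotes, then wild types), as the difference in log2(FPKM + 1) from the mean of that gene over all libraries. Mal-A1 to Mal-A4 share high values in homozygote 1, homozygote 3 and wild type 2, and Mal-A6 to Mal-A8 are highest in the wild types.

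The B genes differed from each other in level. Mal-B1 (2L, 11847226 to 11849169) had 0.282, 0.345 and 0.590 FPKM in the homozygotes, 0.378, 0.490 and 0.487 FPKM in the heterozygotes, and 0.749, 0.179 and 0.532 FPKM in the wild types. It reached 1 FPKM in none of the 9 libraries, was not tested, and its genotypes overlapped; with no filter its log2 difference of homozygotes over wild types was -0.068 (SE 0.15, 95% interval -0.41 to 0.27, limma adjusted p = 0.769). Mal-B2 (2L, 11849958 to 11852881) had 21.3, 68.9 and 55.2 FPKM in the homozygotes, 20.4, 20.5 and 25.4 FPKM in the heterozygotes, and 21.8, 18.9 and 20.5 FPKM in the wild types. Homozygotes 2 and 3 exceeded all other libraries, while homozygote 1 lay among the heterozygotes and wild types. The log2 difference of homozygotes over wild types was 1.05 (SE 0.38, 95% interval 0.18 to 1.92, adjusted p = 0.0749) and that over heterozygotes 0.95 (SE 0.38, adjusted p = 0.167). Without homozygote 1 both passed the threshold, at 1.55 (adjusted p = 0.00140) and 1.45 (0.00253).

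**Figure D4:**
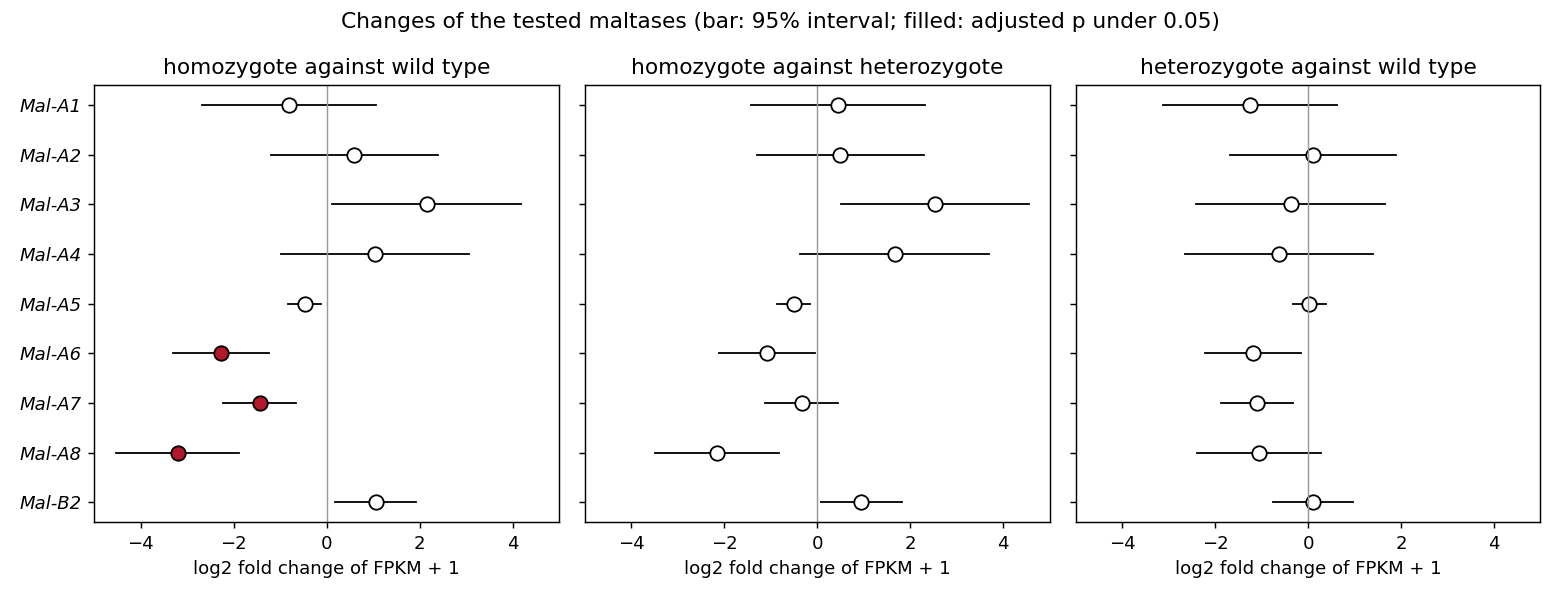
Log2 fold change of FPKM + 1 with its 95% interval for the 9 tested maltases, homozygotes over wild types (left), homozygotes over heterozygotes (middle) and heterozygotes over wild types (right); filled points passed an adjusted p of 0.05. Only Mal-A6, Mal-A8 and Mal-A7, which was tested through the wild types alone, are filled, in the left panel.

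What the loss of the remaining working copy went with was asked by setting homozygotes against heterozygotes, in which 0 of 9 maltases and 7.70% of all loci were called in limma. At an unadjusted p under 0.05, 2 maltases were higher (Mal-A3 and Mal-B2) and 3 lower (Mal-A5, Mal-A6 and Mal-A8), again without a share of all loci at that threshold. Mal-A8 had the smallest p, with a log2 difference of -2.15 (SE 0.58, 95% interval -3.48 to -0.82, adjusted p = 0.0646), and passed without homozygote 3 (-2.81, 0.0138). The libraries did not overlap for 3 of the 8 tested maltases other than Mal-A7 (Mal-A3, Mal-A5 and Mal-A8), against 33.1% of all tested loci. Mal-A7, under 1 FPKM in each of these libraries, did not overlap either.

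With 1 mutant copy, 0 of 9 maltases were called against the wild types, where 0.211% of all loci were. At an unadjusted p under 0.05, Mal-A6 was lower (log2 difference -1.19, SE 0.44, limma adjusted p = 0.765). Mal-A7 had a fitted value of -1.10 (SE 0.34, adjusted p = 0.582), and since the wild types alone had brought it into the test, it had to differ here too. Mal-A8 had a value of -1.06 (SE 0.58, 95% interval -2.39 to 0.28, adjusted p = 0.835). Heterozygous and wild type libraries did not overlap for 2 of the 8 tested maltases other than Mal-A7 (Mal-A6 and Mal-A8), and for 14.4% of all tested loci. These comparisons share libraries, and the values of Mal-A8 stand side by side at -3.21 for homozygotes over wild types, -2.15 for homozygotes over heterozygotes and -1.06 for heterozygotes over wild types. None of the 9 tested maltases was called for a difference of the heterozygotes from the midpoint of the other genotypes, with 0 at an unadjusted p under 0.05, and 1.00% of all loci were. For Mal-A6 that difference was -0.051 (SE 0.38, 95% interval -0.94 to 0.84) and for Mal-A8 0.55 (SE 0.50, 95% interval -0.61 to 1.70), intervals that leave room for sizeable departures from the midpoint.

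The total of the A cluster RNA overlapped between genotypes, whereas the share of Mal-A6 to Mal-A8 in it did not. Summed over Mal-A1 to Mal-A8, the cluster gave 335, 139 and 373 FPKM in the homozygotes, 277, 231 and 222 FPKM in the heterozygotes, and 282, 667 and 325 FPKM in the wild types. Homozygote 2 had the lowest and wild type 2 the highest sum. Mal-A6 to Mal-A8 together made up 6.51, 16.7 and 17.3% of this sum in the homozygotes, 34.5, 43.1 and 29.4% of it in heterozygous libraries, and 46.7, 48.6 and 50.8% of it in wild type libraries. These shares did not overlap between any 2 genotypes, and wild type 2, with the highest sum, had a share like those of the other wild types. Mal-A1 to Mal-A4 made up 74.2, 27.1 and 59.3% in the homozygotes, 22.6, 18.3 and 16.0% of it in heterozygous libraries, and 15.2, 36.3 and 14.9% of it in wild type libraries, with homozygote 2 below wild type 2. The ratio of Mal-A3 to Mal-A6 RNA was 6.13, 0.735 and 1.499 in the homozygotes, 0.166, 0.0905 and 0.173 among the heterozygotes, and 0.0745, 0.155 and 0.0410 among the wild types. In this ratio every homozygote exceeded every other library. Shares and ratios are descriptions without a test, since the members that form them were grouped with their values known.

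**Figure D5:**
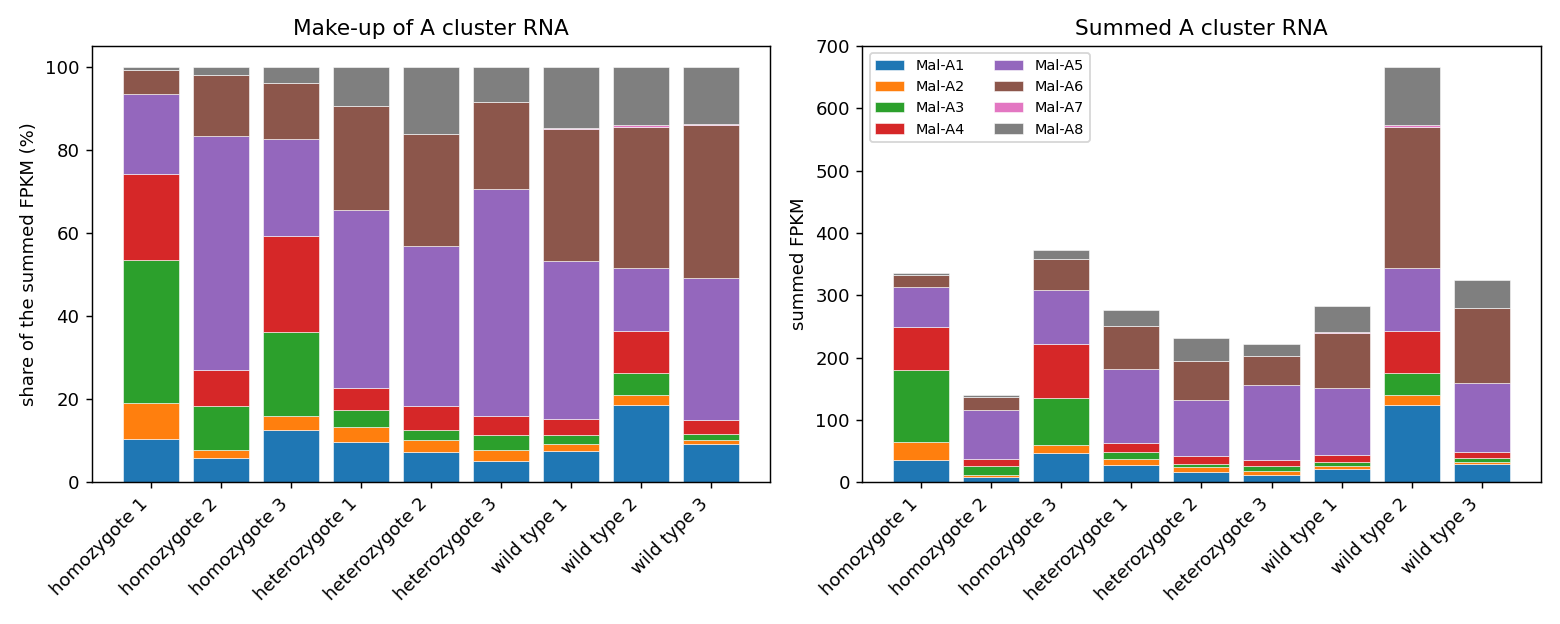
Share of each A maltase in the summed FPKM of the cluster (left, in percent) and the summed FPKM itself (right) in each library, homozygotes left, heterozygotes in the middle, wild types right. Mal-A6 and Mal-A8 (brown and grey) shrink in the homozygotes, where Mal-A6 to Mal-A8 hold 6.51 to 17.3% against 46.7 to 50.8% in the wild types, and wild type 2 has the highest sum.

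Across the 9 libraries, which share genotype and total RNA, the A genes fell into sets of like profile. Mal-A6 and Mal-A8 had the closest profiles in the family (Pearson r of log2(FPKM + 1) 0.967), and each was the nearest of all tested loci to the other. Mal-A7 lay near both, with r of 0.902 to Mal-A6 and 0.817 to Mal-A8. It passed the filter through the wild types alone, so its profile had to be high there, and its likeness is no support for a set. Mal-A3 and Mal-A4 formed a second close pair (0.932), with Mal-A2 at 0.819 and 0.851 to them. Between the sets the values were low or negative, from -0.47 for Mal-A3 and Mal-A8 and -0.34 for Mal-A3 and Mal-A6 to 0.126 for Mal-A4 and Mal-A7. Mal-A1 lay between the sets, at 0.752 to Mal-A4 and 0.612 to Mal-A6. Mal-A5 was at 0.713 to Mal-A8, 0.655 to Mal-A6, 0.387 to Mal-A7 and -0.68 to Mal-A3.

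Outside the family, the loci most like Mal-A8 after Mal-A6 were l(2)efl, a small heat shock protein gene (0.961), and CG9153 (0.956). CG9153 (0.963) and zyd (0.955) were the nearest to Mal-A6 after Mal-A8. Those most like Mal-A3 were CG4459 (0.974), GstD7, a glutathione transferase gene (0.971), and cana (0.965), and GstD7 averaged 21.0 FPKM in homozygotes, 3.80 in heterozygotes and 3.76 in wild types. For Mal-A2 they were CG44040 (0.992), Spn42De, a serpin gene (0.989), and CG4573 (0.983). Mal-A4 was closest to CG2004 (0.973), Mal-A1 to CG4734 (0.950), Mal-A7 to CG33012 (0.952) and Mal-A5 to MED1, a subunit of the Mediator complex (0.940). Mal-B2 was closest to Thor, the fly 4E-BP that restrains cap-dependent translation (0.977), which averaged 1950 FPKM in homozygotes, 1115 in heterozygotes and 1021 in wild types. For the mean profile of the A genes the nearest loci were CG2144 (0.956), CG4734 (0.948), CG8997 (0.937), CG7953 (0.936) and CG4362 (0.924).

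Among 17 other glycosidases and amylases tested, 2 rose and 1 fell in homozygotes against wild types, with a median log2 fold change of 0.16. Of all tested loci 12.3% were called higher and 9.67% lower. Amy-d, an amylase, averaged 104 ± 17.2 FPKM in homozygotes, 11.0 ± 2.07 FPKM in heterozygotes and 35.1 ± 33.8 FPKM in wild types. Its homozygotes exceeded all other libraries. The rise over wild types was 1.92 (SE 0.54, limma adjusted p = 0.0429) and was lost without any single library other than wild type 2 (up to 0.126), after quantile normalization (0.0517) and with 2 genotypes fitted (0.101). Amy-p, its near-identical neighbour with which reads may be shared, averaged 180.0 ± 31.5 FPKM in homozygotes, 26.7 ± 2.33 FPKM in heterozygotes and 90.1 ± 70.5 FPKM in wild types (1.24, SE 0.45, adjusted p = 0.0769), and was called without wild type 2 (1.83, adjusted p = 0.00145). Over heterozygotes Amy-p and Amy-d were called, the only 2 of the 17, named here after their values were seen, where 7.70% of all tested loci were called. The change was 2.70 (SE 0.45, adjusted p = 0.0112) for Amy-p and 3.13 (SE 0.54, adjusted p = 0.0136) for Amy-d. The Amy-p call was lost without homozygote 3, heterozygote 2 or heterozygote 3 (up to 0.0559), and the Amy-d call without homozygote 3, heterozygote 1 or heterozygote 2 (up to 0.0682). Amyrel, of the same list, averaged 6.46 ± 3.16 FPKM in homozygotes, 1.20 ± 0.376 FPKM in heterozygotes and 15.9 ± 11.8 FPKM in wild types. It was called neither over wild types (-1.05, limma adjusted p = 0.135) nor over heterozygotes (1.69, adjusted p = 0.0761), and was also named after its values were seen.

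CD98hc, the heavy chain of amino acid transporters whose sequence is related to maltases, rose by 0.41 (limma adjusted p = 0.0441), a call lost without any single library other than homozygote 3 (up to 0.122), after quantile normalization (0.431) and with 2 genotypes fitted (0.107). The beta-galactosidase gene Gal fell by 1.24 (SE 0.28, adjusted p = 0.0244), a call lost without homozygote 3, wild type 1 or wild type 3 (up to 0.0826) and with 2 genotypes fitted (0.0726). The alpha-glucosidase gene tobi, a target of insulin signalling, had 13.9, 13.0 and 25.2 FPKM in homozygotes, 13.4, 11.4 and 11.7 FPKM in heterozygotes, and 11.3, 87.6 and 11.4 FPKM in wild types (-0.44, adjusted p = 0.673). Wild type 2 was its highest library, as in Mal-A1, Mal-A6, Mal-A7 and Mal-A8.

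Of 10 tested genes of sugar sensing, 2 rose and 0 fell in homozygotes (median -0.00023), where 12.3% of all tested loci were called higher and 9.67% lower. bigmax averaged 43.3 ± 8.73 FPKM in homozygotes, 29.9 ± 2.91 FPKM in heterozygotes and 24.5 ± 1.72 FPKM in wild types (0.78, SE 0.15, limma adjusted p = 0.0123), and sug, which shares a locus with CG13319, averaged 86.0 ± 5.80 FPKM in homozygotes, 79.1 ± 5.996 FPKM in heterozygotes and 50.9 ± 11.0 FPKM in wild types (0.76, SE 0.15, adjusted p = 0.0152). Both calls were lost without wild type 3 (0.0538 and 0.0598), and that of sug with 2 genotypes fitted (0.0605). The ligand gene daw averaged 23.02 ± 6.38 FPKM in homozygotes, 29.3 ± 2.29 FPKM in heterozygotes and 27.8 ± 4.30 FPKM in wild types (-0.28, adjusted p = 0.299), and Mondo had a value of -0.27 (adjusted p = 0.328).

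Of 16 tested genes of trehalose, glycogen and sugar transport, 5 rose and 2 fell (median 0.49), beside 12.3% of all tested loci called higher and 9.67% lower. The predicted sugar transporter CG1208, whose locus also carries glob3, averaged 237 ± 19.8 FPKM in homozygotes, 3.89 ± 0.401 FPKM in heterozygotes and 8.57 ± 5.52 FPKM in wild types (log2 4.799, SE 0.37, limma adjusted p = 0.000228). CG8837 (1.28, adjusted p = 0.00233) and CG4607 (1.14, adjusted p = 0.00461), of the same kind, rose too, and these 3 calls held without each library. The other 2 risers, named after their values were seen, were Pgm (phosphoglucomutase, 1.40, adjusted p = 0.0200, lost without homozygote 3, wild type 1 or wild type 3 and with 2 genotypes fitted, up to 0.0744) and the trehalose transporter locus Tret1-1/Tret1-2 (0.70, 0.0108, lost after quantile normalization, 0.0666). The sugar transporters sut4 (-1.56, adjusted p = 0.0395) and Glut1 (-0.75, 0.0432) fell. The sut4 call was lost without homozygotes 2 or 3, heterozygotes 2 or 3, or wild types 1 or 3 (up to 0.120) and after quantile normalization (0.0545), and that of Glut1 without any single library other than homozygote 2 or wild type 2 (up to 0.116). With 2 genotypes fitted both were lost (0.0862 and 0.103). In heterozygotes against wild types limma called 0 genes of these 3 lists and 0.211% of all tested loci. Before adjustment 2 glycosidase or amylase genes were lower at p under 0.05, and 1 gene was higher and 1 lower in each of the other lists. The share of all loci at that threshold is not given here.

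Markers of the gut and of other larval tissues give the setting of these values. Across all tested loci 12.3% were called higher and 9.67% lower in homozygotes over wild types. The counts below are therefore not read alone as a rise or fall of a list. Of 24 tested genes of midgut identity and the peritrophic matrix, 3 rose and 0 fell in homozygotes (median 0.31), and their summed RNA ran from 6572 to 10021 FPKM in homozygotes, 6705 to 10857 FPKM in heterozygotes and 5707 to 8293 FPKM in wild types. The brush border myosin gene Myo31DF averaged 102 ± 14.3 FPKM in homozygotes, 30.6 ± 5.46 FPKM in heterozygotes and 29.9 ± 3.68 FPKM in wild types (1.74, SE 0.16, limma adjusted p = 0.000634, called without each library). The other 2 risers were Tk, which encodes the gut peptide tachykinin (0.84, adjusted p = 0.0363), and the myosin gene Myo61F (1.18, 0.0365). The Tk call was lost without homozygote 3, any of the heterozygotes, wild type 1 or wild type 3 (up to 0.101), and the Myo61F call without homozygote 3, heterozygote 2, heterozygote 3 or any of the wild types (up to 0.102). Of the 35 midgut proteases, lipases and lysozymes, 3 rose and 1 fell (median 0.052). The fall was in the protease Jon99Fi, at 412 ± 201 FPKM in homozygotes, 3171 ± 217 FPKM in heterozygotes and 1630 ± 309 FPKM in wild types (-2.10, SE 0.36, adjusted p = 0.00838, called without each library). The 3 risers were lambdaTry (3.72, adjusted p = 0.0227), Ser6 (1.75, 0.0250) and Jon65Aii (1.20, 0.0285), each lost without homozygote 3, wild type 1 or wild type 3 (up to 0.0799, 0.0841 and 0.0970), and Jon65Aii also without homozygote 1, heterozygote 2 or heterozygote 3. The summed gut marker RNA of homozygotes overlapped that of wild types in both lists.

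Salivary glue genes are active late in the last larval instar. Beside the counts that follow, 12.3% of all tested loci were called higher and 9.67% lower in homozygotes over wild types. Of 11 tested glue genes 2 fell (CG7587 and Sgs8) and 1 rose (ng3), with a median of -2.11, and their summed RNA ran from 6401 to 29354 FPKM in homozygotes, 54532 to 62636 FPKM in heterozygotes and 56264 to 81874 FPKM in wild types. Each homozygote was below every other library in this sum, and heterozygotes and wild types overlapped. Of 14 ecdysone response genes 0 were called in limma, against 22.0% of all tested loci, with a median of -0.51. Before adjustment 5 were lower and 0 higher at p under 0.05. The share of all loci at that threshold is not given here, and these 5 are not read as a shift of the list. The summed fat body markers, with 0 of 12 called higher and 1 lower (Fbp1), ran from 13761 to 35051 FPKM in homozygotes, 38732 to 52711 FPKM in heterozygotes and 29510 to 50996 FPKM in wild types. These sums hold the larval serum protein gene Lsp1beta, which is listed at 0 in homozygote 1 and heterozygote 3 and at 3299 to 14821 FPKM in the other 7 libraries. Without it the sums ran from 10462 to 23958 FPKM in homozygotes, 31509 to 38732 FPKM in heterozygotes and 23373 to 38447 FPKM in wild types. Of 9 markers of the Malpighian tubules, the excretory organs, 3 rose (Irk1, Irk3 and Uro) and 0 fell. The calls of CG7587 (-4.50, adjusted p = 0.00974) and Irk1 (1.19, 0.00798) held without each library. Those of Sgs8 (-2.52, 0.0441) and Fbp1 (-4.44, 0.0496) were lost without any single heterozygote or wild type, that of ng3 (1.72, 0.0471) without any single library other than homozygote 2 or wild type 2, that of Irk3 (0.94, 0.0160) without homozygote 3, wild type 1 or wild type 3, and that of Uro (1.84, 0.0293) without these and homozygote 1, heterozygote 2 or heterozygote 3. The part of larval stage and of tissue make-up in the maltase values was not tested.

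Genes beside the maltases were measured in the same fit. Cyp4e2, a cytochrome P450 gene 2499 bases from the A cluster, averaged 121.9 ± 20.5 FPKM in homozygotes, 159 ± 12.2 FPKM in heterozygotes and 117 ± 25.5 FPKM in wild types (0.065, limma adjusted p = 0.812). Cyp4e1, which overlaps Mal-A1, averaged 1.47 ± 0.864 FPKM in homozygotes, 1.61 ± 0.208 FPKM in heterozygotes and 0.881 ± 0.374 FPKM in wild types (adjusted p = 0.383). The gene mtt, which overlaps Mal-A8, averaged 0.452 ± 0.121 FPKM in homozygotes, 0.537 ± 0.111 FPKM in heterozygotes and 0.678 ± 0.221 FPKM in wild types, too low to be tested. Both overlapping genes had lower means than their maltase in each genotype. On the other side of Mal-A8, CG12780 was 77897 bases away (-0.23, adjusted p = 0.674).

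Beside the B pair, the locus CG14933/CG42486, at 3162 bases, rose in homozygotes, with 63.0 ± 19.3 FPKM in homozygotes, 29.7 ± 3.17 FPKM in heterozygotes and 23.7 ± 3.00 FPKM in wild types (1.34, SE 0.21, limma adjusted p = 0.00554). The call held without each library (up to 0.0307). Pde1c, a phosphodiesterase gene around the B pair, rose to 5.20 ± 0.541 FPKM in homozygotes, against 4.13 ± 0.622 FPKM in heterozygotes and 3.69 ± 0.214 FPKM in wild types (0.40, SE 0.11, adjusted p = 0.0449). That call was lost without any single library other than homozygote 2 or heterozygote 1 (up to 0.127). CG42751, 548 bases on the other side, was not called (0.45, adjusted p = 0.224).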

How the data were processed

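RNA of whole larvae was sequenced in 9 strand-specific Illumina libraries with paired reads of 75 bases, per the labels. The authors deposited FPKM values per gene and library, made with HISAT2 2.1.0 and Cufflinks 2.2.1 on build dm6, with limma also named, per the submitters' processing notes; counts were not used here. The table held 50244 lines for 15809 loci, repeated for gene names with identical values, and 1 line per locus was kept. All 10 maltases had loci of their own. FPKM keeps no absolute depth, which limits the precision that can be stated for low values such as those of Mal-A7 and Mal-B1, and relative depth was read from the value of 1 fragment at weak loci.

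On log2(FPKM + 1), limma 3.58.1 in R 4.3.3 (lmFit, contrasts.fit, eBayes with trend) fitted the 3 genotypes together at loci with at least 1 FPKM in at least 3 libraries (10887), with Benjamini-Hochberg adjustment over them. The fit was also run on simulated data with planted changes and independent normal noise, without outlying libraries such as homozygote 2 or wild type 2. The outcome of that run is not given here, and no result above rests on it. Alternatives were leaving out each library, a replicate block, 2 genotypes at a time, quantile normalization, scaling by median of ratios, a minimum of 5 FPKM or none, eBayes without the trend, all deposited lines, and pseudocounts of 5 or 0.1. The same alternatives for named genes outside the family were added after seeing the data.

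The members and gene lists were chosen with earlier results of these data known. From each list up to 3 genes per direction with the smallest adjusted p were eligible for naming, or the most abundant where none passed, beside the 3 nearest genes on each side of the clusters and the 3 loci of highest Pearson r for each maltase. Positions came from the Ensembl 115 annotation, whose gene ends equal the deposited ones in 6 of the 10 maltases; Mal-A1, Mal-A8, Mal-B1 and Mal-B2 are deposited with wider spans that they share with other loci. Protein and promoter sequences were not analysed here.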

Additional observations from a re-analysis of the deposited data

How the results depend on the processing

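Of 658 alternative values for the 9 tested maltases over all comparisons, 628 kept their direction and their side of the threshold, 7 passed it newly, 6 lost it and 17 changed sign. The main fit called only Mal-A6, Mal-A7 and Mal-A8, in homozygotes over wild types, so most of the 628 were uncalled values that stayed uncalled. The 6 losses all fell on the calls of Mal-A6 and Mal-A7. After quantile normalization Mal-A5 in heterozygotes over wild types was -0.088. With each library left out in turn, the ranges that crossed 0 were, for homozygotes over wild types, -0.096 to 1.40 for Mal-A2; for homozygotes over heterozygotes, -0.033 to 1.18 for Mal-A1 and -0.20 to 1.30 for Mal-A2. For heterozygotes over wild types they were -0.29 to 0.70 for Mal-A2, -0.88 to 0.43 for Mal-A3, -1.06 to 0.23 for Mal-A4 and -0.047 to 0.17 for Mal-A5. For heterozygotes over the midpoint they were -0.60 to 0.15 for Mal-A2 and -0.20 to 0.17 for Mal-A6.

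Maltases called in homozygotes over wild types, Mal-A7 included, numbered 2 to 4 with a library left out, and 1, Mal-A8, with only the 2 genotypes fitted. Over heterozygotes they numbered 0 to 1, which was Mal-B2, Mal-A3 or Mal-A8 without homozygote 1, 2 or 3. Loci called in homozygotes over wild types numbered 726 to 3088, in homozygotes over heterozygotes 303 to 815, in heterozygotes over wild types 9 to 27, and over the midpoint 13 to 101, as libraries were left out. With only 2 genotypes fitted they numbered 723, 549 and 8 in the first 3 comparisons, in fits with fewer libraries. Same-numbered libraries correlated from -0.65 to 0.33 in their deviations from the genotype means. With 3 libraries per genotype these values cannot decide whether same-numbered libraries were prepared together, and the labels do not say so. With the replicate block, 966, 437, 9 and 15 loci were called in the 4 comparisons, Mal-A6 and Mal-A8 stayed called, and Mal-A7 did not (adjusted p = 0.0535). Mal-A7 was also not tested at a minimum of 5 FPKM. Depth is unknown, so values under 1 FPKM, as in Mal-B1 and in Mal-A7 outside the wild types, carry no counting interval. Of the named genes outside the family called in homozygotes over wild types, calls also lost under other settings were those of Amy-d, sut4, Glut1, Fbp1, ng3, Sgs8 and Pde1c with no filter (adjusted p = 0.0505 to 0.0661), CD98hc, sut4, Glut1, Fbp1, ng3 and Pde1c at a pseudocount of 5 (0.0507 to 0.0619), Fbp1 without the trend (0.0512), and Fbp1 and Sgs8 after quantile normalization (0.0522 and 0.05002). With 2 genotypes fitted, lambdaTry, Ser6, Jon65Aii, Tk, Myo61F, Fbp1, ng3, Sgs8, Uro and Pde1c were lost beside those given with their calls. The replicate block ended 15 of these 28 calls.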
